A study of Mus musculus with 24 samples.

Results

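Oxygen-induced retinopathy in wildtype (WT) mice was examined in 6 of the 24 samples of the study, chosen by their labels alone: 3 retinas labelled WT and hyperoxia (WT-O2) and 3 retinas labelled WT and room air (WT-RA). WT-O2 pups breathed 75% oxygen from postnatal day 7 to day 12 and were then returned to room air, and WT-RA pups stayed in room air (21% oxygen). All retinas were taken on postnatal day 18, so the WT-O2 retinas had been back in room air for several days. The WT pups were littermates of gasdermin D knockout (GSDMD-KO) pups on a C57/B6 background, and the mothers and fathers were heterozygous. RNA of whole retinas was sequenced, 1 library per mouse, and the 6 GSDMD-KO retinas of the same tissue table (3 KO-RA and 3 KO-O2) were used to estimate the spread and for a side-by-side comparison. Levels are given as CPM, which scale the count of a gene to the total of its library, with the totals adjusted by the TMM method. The label retina fitted the counts. Gnat1, the transducin subunit of rods, was at 12866, 13258 and 11681 CPM in WT-RA and 10991, 9716 and 11022 CPM in WT-O2, high in all 6 retinas.

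In the immature mouse retina the blood vessels still grow during the first weeks after birth, and high oxygen stops this growth and removes capillaries. On return to room air the retina left without vessels becomes hypoxic. Hypoxia-inducible factors (HIF) then accumulate and drive genes such as Vegfa, and new vessels sprout out of the retina toward the vitreous as tufts, while Mueller glia, the radial support cells of the retina, become reactive. The same sequence of vessel loss and abnormal regrowth makes up retinopathy of prematurity, for which this mouse model is used.

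The libraries were of even depth. Totals of the 6 WT retinas lay between 24863257 and 29093035 estimated counts. The libraries labelled WT-RA 2 and WT-RA 3 held lens RNA: 30 lens genes, mostly crystallins, took 4.78% and 12.8% of their counts, against 0.0138% to 0.0224% in WT-RA 1 and the 3 WT-O2 libraries. The summed lens level was 249, 51124 and 148518 CPM in WT-RA 1 to 3 and 125 to 168 CPM in WT-O2, and lens genes are set apart below. Pigment epithelium and melanocyte genes were also highest in the same libraries, with a summed level of 695 and 849.6 CPM, against 321 CPM in WT-RA 1 and 174 to 349 CPM in WT-O2. Gsdmd, the targeted gene of the study, was at 4.08, 0.419 and 2.7 CPM in WT-RA, 5.7, 2.9 and 3.85 CPM in WT-O2 and 0.636 to 2.95 CPM in the 6 GSDMD-KO retinas. The library labelled WT-RA 2 thus had less Gsdmd than any knockout library, which goes against its label. The knockout allele is a short deletion within 1 exon, so its transcript can still be counted and this level is a limited check of genotype. The names of the groups are those of the labels, and counts without this library are given below. Counts from Y-linked genes were present in 3 of 3 WT-RA and 1 of 3 WT-O2 libraries, so sex was not balanced.

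**Figure D1:**
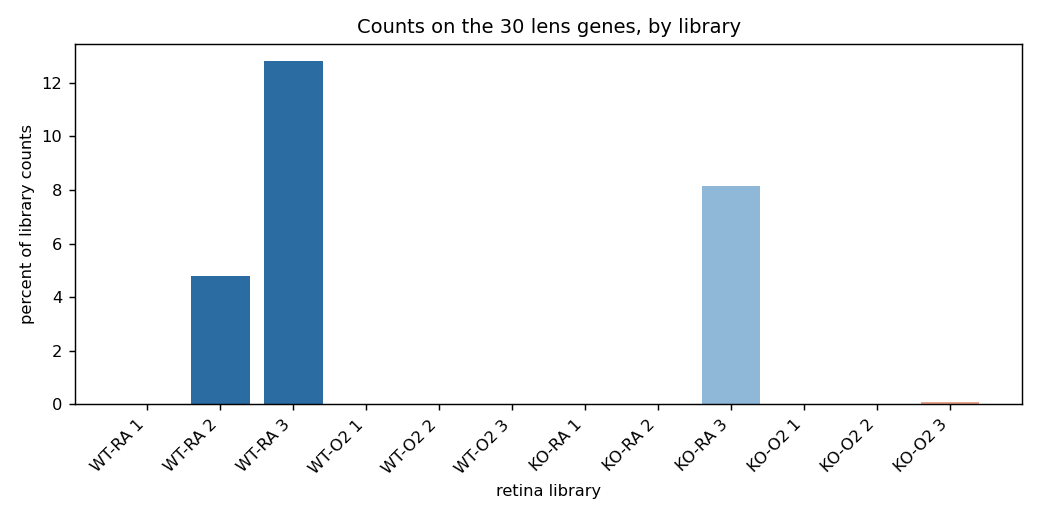
Bars give the percentage of each library's counts that fell on 30 lens genes, for the 3 libraries of each group (WT and GSDMD-KO, room air and oxygen). Bars labelled WT-RA 2 (4.78%), WT-RA 3 (12.8%) and KO-RA 3 (8.15%) stand apart, and the other 9 bars are at or below 0.0731%.

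The promoters below show the proximal sequence of the 5 HIF target genes that were called higher in WT-O2 (Adm, Stc2, Egln3, Epo and Vegfa) and of Edn2 and Esm1, which head the genes named below by size. Each line holds the 250 bases before the first RefSeq start listed for the gene (GRCm38.p6), written 5′ to 3′ on the gene's strand. Vegfa has 2 listed starts, and only the first is shown and counted. The shares below likewise use the first start of each gene. Capitals mark ACGTG or GCGTG, the core that HIF recognizes, in either orientation (CACGT and CACGC are the reverse complements).
Adm: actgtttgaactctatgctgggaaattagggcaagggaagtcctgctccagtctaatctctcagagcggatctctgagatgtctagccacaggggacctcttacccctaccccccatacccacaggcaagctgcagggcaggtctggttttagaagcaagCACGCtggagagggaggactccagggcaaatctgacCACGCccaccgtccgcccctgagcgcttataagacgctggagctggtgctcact
Stc2: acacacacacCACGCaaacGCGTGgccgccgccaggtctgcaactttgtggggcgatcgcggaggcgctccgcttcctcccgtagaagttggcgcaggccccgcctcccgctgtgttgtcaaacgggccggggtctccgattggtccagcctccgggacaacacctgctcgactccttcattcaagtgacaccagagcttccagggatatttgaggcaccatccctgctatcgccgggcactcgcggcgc
Egln3: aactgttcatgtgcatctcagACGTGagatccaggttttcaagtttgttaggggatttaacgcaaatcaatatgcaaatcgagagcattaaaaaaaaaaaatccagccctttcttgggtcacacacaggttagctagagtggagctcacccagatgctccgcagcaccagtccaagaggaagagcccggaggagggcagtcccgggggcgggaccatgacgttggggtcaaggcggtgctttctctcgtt
Epo: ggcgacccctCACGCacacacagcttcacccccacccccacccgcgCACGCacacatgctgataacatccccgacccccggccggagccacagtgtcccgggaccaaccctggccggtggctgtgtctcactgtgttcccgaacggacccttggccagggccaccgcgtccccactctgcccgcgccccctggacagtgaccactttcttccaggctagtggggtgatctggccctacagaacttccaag
Vegfa: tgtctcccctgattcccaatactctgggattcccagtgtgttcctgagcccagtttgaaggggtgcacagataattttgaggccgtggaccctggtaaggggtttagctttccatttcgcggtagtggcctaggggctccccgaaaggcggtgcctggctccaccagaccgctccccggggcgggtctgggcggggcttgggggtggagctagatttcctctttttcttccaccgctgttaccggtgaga
Edn2: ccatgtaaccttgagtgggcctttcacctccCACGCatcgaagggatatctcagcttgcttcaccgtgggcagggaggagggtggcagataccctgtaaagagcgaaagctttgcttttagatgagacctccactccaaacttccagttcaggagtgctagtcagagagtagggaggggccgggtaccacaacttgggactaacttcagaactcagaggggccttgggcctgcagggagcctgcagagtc
Esm1: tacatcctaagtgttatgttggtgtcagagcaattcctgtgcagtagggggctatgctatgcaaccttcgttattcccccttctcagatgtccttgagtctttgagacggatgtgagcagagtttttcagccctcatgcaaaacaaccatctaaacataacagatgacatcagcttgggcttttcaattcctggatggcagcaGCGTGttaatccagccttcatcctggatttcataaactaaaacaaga
These windows lie at chr7:110627407-110627656 (Adm, plus strand), chr11:31370062-31370311 (Stc2, minus), chr12:54203875-54204124 (Egln3, minus), chr5:137485817-137486066 (Epo, minus), chr17:46032378-46032627 (Vegfa, minus), chr4:120160956-120161205 (Edn2, plus) and chr13:113209409-113209658 (Esm1, plus). Adm held 2 copies of the core, beginning 90 and 54 bases before the start, Stc2 and Epo held 2 each, Egln3, Edn2 and Esm1 held 1 each, and the Vegfa window held none. Of the 25 HIF targets, 19 had an entry in the promoter table, and 15 of these 19 (78.9%) held the core. Among all 12778 tested genes with an entry the share was 52.0%, and among the 243 genes with an entry that were called higher it was 49.0%. A match describes the letters of this window and was not tested as a binding site, and a window without a match says nothing about sites elsewhere.

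Across the retina, 391 of 19173 genes tested (2.04%) were called between WT-O2 and WT-RA, by the edgeR quasi-likelihood test with Benjamini-Hochberg adjustment. A call needed an adjusted p below 0.1, an unadjusted p below 0.05 and a change of 2-fold or more. The change was mostly one of gain: 340 genes (1.77%) were higher in WT-O2 and 51 (0.266%) were lower. Without the fold limit 990 genes passed (5.16%), of which 597 (3.11%) were higher and 393 (2.05%) lower, so that most of the falls were smaller than 2-fold. Values of the 3 WT-O2 and the 3 WT-RA retinas did not overlap for 390 of the 391 called genes, against 24.0% of all genes tested. The calls were made on these same values, so this follows largely from the calling and is no separate support. Below, a value in brackets with its SE is a log2 fold change, and each adjusted p is from this test. No lens gene was called by edgeR, although 28 of the 30 had an unadjusted p under 0.05 (17.4% of all genes did) and a lower level in WT-O2, and DESeq2 called 26 of them lower. Without the library labelled WT-RA 2 there were 196 calls, of which 177 were among the 391, and without any other WT library they numbered 219 to 504. These were 225 without WT-RA 1, 504 without WT-RA 3, and 237, 219 and 263 without WT-O2 1, 2 and 3. Without both lens-bearing WT-RA libraries, 400 genes were called and 191 of them were shared. This leaves 1 WT-RA retina, whose spread is taken to be that of the other groups. Without KO-RA 3 as well, 362 were called and 167 shared, and of the lists described below the endothelial one held 5 higher calls in place of 13, the mural cell one 3 in place of 5, the endothelin one 1 in place of 3, the microglial and complement ones 2 each in place of 7 and 6, the interferon and NF-κB ones 2 each in place of 4 each, and the matrix one 12 in place of 7. All 391 genes kept their direction in each of these fits, which follows largely from the lack of overlap between groups. Of the 391, 137 (125 higher and 12 lower) stayed called with each WT library left out in turn. Of these 137, 109 were also called without both lens-bearing libraries. With the presence of Y-linked counts as a covariate, 261 genes were called and 214 of them were shared. The mitotic, complement and NF-κB lists described below then held 2 calls each in place of 7, 6 and 4, the microglial list 4 in place of 7, the cytokine list 1 in place of 3, and the endothelial list no lower call in place of 2. As whole retinas were sequenced, a higher level can mean more cells of a type or more RNA per cell, and these cannot be told apart.

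Genes were named by the size of their change among called genes that had an established symbol, an average over the 6 WT retinas of 1 CPM or more, no overlap between groups and no place in the lens list, so genes of low level with larger fitted changes are left out. Of these, Edn2, which encodes endothelin 2, rose the most. Its level was 0.44, 0 and 2.91 CPM in WT-RA and 32.9, 27.8 and 49.5 CPM in WT-O2, a log2 fold change of 5.07 ± 1.11 (SE, adjusted p = 0.0491), and the lowest WT-O2 retina lay far above the highest WT-RA retina. The library labelled WT-RA 2 had no Edn2 count at all, and the call was lost when any WT library but WT-RA 3 was left out (adjusted p = 0.0225 to 0.167 over the 6 omissions, log2 fold change 4.46 to 7.38). Esm1, a proteoglycan secreted by sprouting endothelial tip cells, was at 0.16, 0.0762 and 0.428 CPM in WT-RA and 5.54, 6.92 and 4.9 CPM in WT-O2, a log2 fold change of 4.70 ± 0.73 (SE, adjusted p = 0.00779). Its call was kept with every WT library left out in turn. Adm encodes adrenomedullin, a vasodilator peptide and HIF target, and was at 2.12, 1.91 and 1.63 CPM in WT-RA and 23.8, 29.2 and 21.5 CPM in WT-O2, a log2 fold change of 3.72 ± 0.25 (SE, adjusted p = 0.000194). All 3 WT-O2 values lay far above the WT-RA values, and the call was kept with each single WT library left out, as was that of Apln. Apln encodes apelin, the tip cell ligand of the receptor Aplnr, and was at 5.52, 3.7 and 8.09 CPM in WT-RA and 59.9, 80.0 and 46.9 CPM in WT-O2, a log2 fold change of 3.44 ± 0.28 (SE, adjusted p = 0.000729).

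The other rises named by size belonged to genes of several cell types. Serpina3n, an acute-phase protease inhibitor of reactive glia, was at 2.4, 1.11 and 8.87 CPM in WT-RA and 22.7, 65.3 and 61.1 CPM in WT-O2 (3.60 ± 0.96 SE, adjusted p = 0.0913), so WT-RA 3 lay well above the other room air retinas. Its call was lost when any WT library but WT-RA 3 was left out (adjusted p = 0.0538 to 0.261). Bcl3, an IκB family partner of NF-κB, was at 1.68, 0.686 and 2.53 CPM in WT-RA and 9.97, 21.5 and 20.7 CPM in WT-O2 (3.42 ± 0.61 SE, adjusted p = 0.0173). Mki67, the Ki-67 proliferation antigen, was at 0.08, 0.0381 and 0.343 CPM in WT-RA and 2.69, 1.34 and 2.55 CPM in WT-O2 (3.82 ± 0.71 SE, adjusted p = 0.0199) and Lad1, an anchoring filament protein of basement membranes, rose by a log2 fold change of 4.23 ± 0.71 (SE, adjusted p = 0.014). Tnnt2, cardiac troponin T, rose by 3.74 ± 0.56 (SE, adjusted p = 0.00743) with WT-RA values of 1.04, 1.64 and 1.76 CPM. These 4 calls held with each single WT library left out, and that of Bcl3 was lost without the lens-bearing WT-RA pair (adjusted p = 0.108). Gpihbp1, the endothelial anchor of lipoprotein lipase, rose by 3.71 ± 1.03 (SE, adjusted p = 0.0924). Ripk3, the kinase of necroptosis, rose by 3.5 ± 0.71 (SE, adjusted p = 0.0296) and Exoc3l4 by 3.67 ± 0.88 (SE, adjusted p = 0.0542). Their calls were less steady. That of Gpihbp1 was lost without any WT library but WT-RA 3 (adjusted p = 0.0353 to 0.25), that of Exoc3l4 without the library labelled WT-RA 2 or any WT-O2 library (0.0132 to 0.178) and that of Ripk3 without WT-RA 1 or WT-O2 1 (0.0406 to 0.115). WT-O2 1 held the highest Ripk3 value, 6.43 CPM, against 1.65 and 2.04 CPM in the other 2. Over all 12 genes, the call was kept under every single omission for 7, and with the presence of Y-linked counts as a covariate for 9.

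**Figure D2:**
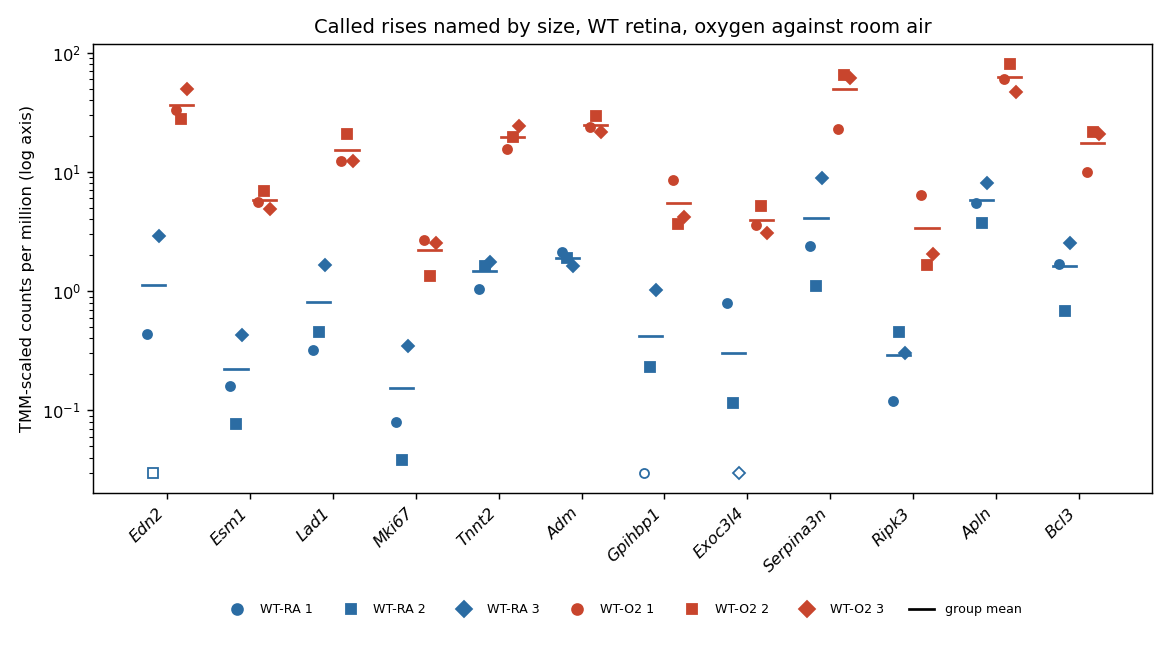
Points give the level of the 12 called genes named for the size of their rise in each WT retina (CPM on a log axis), with WT-RA in blue, WT-O2 in red, a marker shape per replicate and a line at each group mean. Open markers at the bottom are libraries with 0 counts. In every gene the 3 WT-O2 points lie above the 3 WT-RA points.

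The falls were fewer. P2rx2, an ATP-gated cation channel, was at 11.8, 9.95 and 8.05 CPM in WT-RA and 2.66, 1.96 and 1.87 CPM in WT-O2, a log2 fold change of -2.20 ± 0.21 (SE, adjusted p = 0.00104), and every WT-O2 value lay far below every WT-RA value. Etnppl, an ethanolamine-phosphate lyase of astrocytes, was at 6.84, 6.4 and 3.77 CPM in WT-RA and 1.35, 1.34 and 1.5 CPM in WT-O2 (-2.02 ± 0.27 SE, adjusted p = 0.00321). Gkn3, a gastrokine found in arterial endothelium, was at 2.28, 3.2 and 2.18 CPM in WT-RA and 0.308, 0.249 and 0.681 CPM in WT-O2 (-2.62 ± 0.41 SE, adjusted p = 0.00779). Fam107a was at 17.9, 11.7 and 15.6 CPM in WT-RA and 3.73, 4.3 and 4.56 CPM in WT-O2 (-1.84 ± 0.32 SE, adjusted p = 0.0144). Of the 12 falls named by size, these 4 kept their calls with each WT library left out. With the presence of Y-linked counts as a covariate, 5 of the 12 kept theirs. Of the same 12, Shisal2b had the largest fall, a log2 fold change of -2.77 ± 0.63 (SE, adjusted p = 0.0445), with values of 2.72, 2.94 and 1.84 CPM in WT-RA and 0.115, 0.218 and 0.749 CPM in WT-O2. Its call was lost without WT-RA 1, the library labelled WT-RA 2, WT-O2 1 or WT-O2 2 (adjusted p = 0.017 to 0.168 over all omissions).

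Pltp, the phospholipid transfer protein, was at 49.7, 70.3 and 53.2 CPM in WT-RA and 25.5, 16.2 and 16.4 CPM in WT-O2 (-1.58 ± 0.33 SE, adjusted p = 0.0359, lost without the library labelled WT-RA 2, WT-O2 2 or WT-O2 3, adjusted p = 0.0499 to 0.145). Paqr5, a membrane progestin receptor, fell by a log2 fold change of 1.56 ± 0.37 (SE, adjusted p = 0.052) and lost its call without WT-RA 1 or any WT-O2 library (adjusted p = 0.0573 to 0.19). Spink13, a protease inhibitor, fell by 1.63 ± 0.45 (SE, adjusted p = 0.0843) and lost its call with any library left out (adjusted p = 0.114 to 0.248). Some of the falls moved with the lens RNA. Rbm24, an RNA-binding protein of lens and muscle, was at 6.56, 13.5 and 28.7 CPM in WT-RA and 3.12, 3.9 and 3.17 CPM in WT-O2 (-2.26 ± 0.54 SE, adjusted p = 0.0564). Capn3, a calpain with a lens form, was at 1.68, 2.94 and 5.91 CPM in WT-RA and 0.924, 0.686 and 0.579 CPM in WT-O2 (-2.26 ± 0.58 SE, adjusted p = 0.066). Both were highest in WT-RA 3, the library with the most lens RNA, and second in the library labelled WT-RA 2, and among the knockout retinas both were highest in KO-RA 3 (11.2 and 2.86 CPM). Without the lens-bearing WT-RA pair the log2 fold changes were -0.93 (adjusted p = 0.407) for Rbm24 and -1.19 (0.42) for Capn3. Tmem190 was likewise highest in WT-RA 3 (2.48, 3.62 and 5.82 CPM in WT-RA) and moved from -1.60 ± 0.43 (SE, adjusted p = 0.0775) to -0.91 (adjusted p = 0.429). R3hdml fell by 1.69 ± 0.41 (SE, adjusted p = 0.0572) with its highest value, 11.2 CPM, in WT-RA 3, and by 1.40 (adjusted p = 0.0952) without the 2 libraries. With 1 library left out the calls of Rbm24 and Capn3 were lost without any but WT-RA 1 (adjusted p = 0.0367 to 0.184 and 0.0705 to 0.206), that of Tmem190 without the library labelled WT-RA 2, WT-RA 3, WT-O2 1 or WT-O2 2 (0.0564 to 0.217) and that of R3hdml without any but the library labelled WT-RA 2 (0.0352 to 0.198). The part of lens tissue in these values was not tested.

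**Figure D3:**
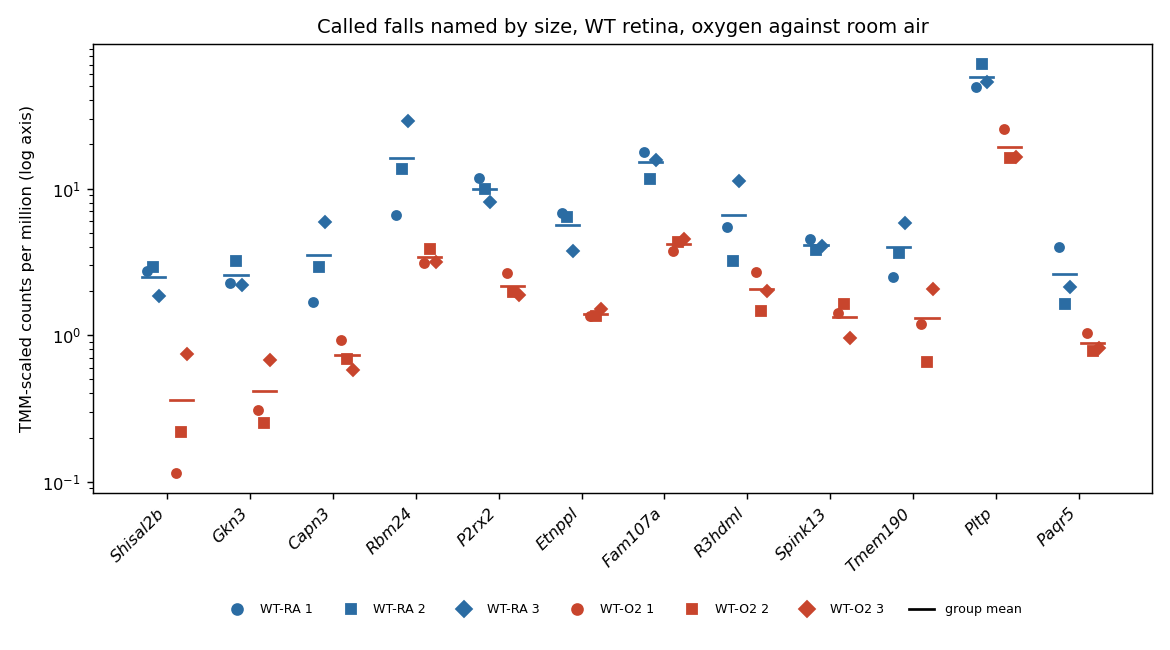
Points give the level of the 12 called genes named for the size of their fall in each WT retina (CPM on a log axis), drawn as for the rises, with the mean of each group as a line. Rbm24, Capn3 and Tmem190 have higher levels in both room air libraries with lens RNA than in WT-RA 1, and P2rx2 and Fam107a have lower ones.

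The HIF target list was partly raised. This list and those below were chosen with earlier results of these data known. Their counts and medians beside those over all genes therefore describe the lists and are no independent test. Of 25 targets, all tested, 5 were called higher and none lower (1.77% of all genes were called higher), with a median log2 fold change of 0.45 against 0.000921 over all genes tested. Vegfa, the main growth factor of retinal vessels, was at 256, 234 and 246 CPM in WT-RA and 595, 613 and 548 CPM in WT-O2, a log2 fold change of 1.25 ± 0.13 (SE, adjusted p = 0.00118). The means were 245 ± 11.2 CPM (SD, n = 3) and 585 ± 33.8 CPM (SD, n = 3), so the groups were many SDs apart. Egln3, a prolyl hydroxylase that marks HIF for degradation, was at 4.32, 4 and 5.61 CPM in WT-RA and 15.1, 16.7 and 13.6 CPM in WT-O2 (1.70 ± 0.22 SE, adjusted p = 0.00304). Stc2, a stanniocalcin hormone, was at 2.48, 1.75 and 2.66 CPM in WT-RA and 8.31, 6.52 and 6.43 CPM in WT-O2 (1.62 ± 0.20 SE, adjusted p = 0.00278). Epo, which encodes erythropoietin, was at 1.32, 0.686 and 1.28 CPM in WT-RA and 3.5, 3.02 and 3.34 CPM in WT-O2 (1.58 ± 0.39 SE, adjusted p = 0.0577). Its groups did not overlap, but the call was lost without any WT library but WT-RA 3 (adjusted p = 0.0769 to 0.18). Epo and other list members beyond the 6 of smallest p were named after their values were seen.

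Other HIF targets moved less. Bnip3, a mitophagy receptor, rose by a log2 fold change of 0.68, adjusted p = 0.0499, under 2-fold. Hilpda, a lipid droplet protein (-0.02, adjusted p = 0.967), and Angptl4, an angiopoietin-like lipase inhibitor (0.40, adjusted p = 0.706), had values that overlapped between groups. With 1 WT library left out, 4 to 6 members were called. The transcripts of the factors themselves did not pass: Hif1a had a log2 fold change of 0.05, adjusted p = 0.845, and Epas1, which encodes HIF-2α, -0.02, adjusted p = 0.957. The receptor parts of adrenomedullin were likewise not called, with 0.19, adjusted p = 0.75 for Calcrl and 0.23, adjusted p = 0.475 for Ramp2.

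Glycolysis genes, many of them known HIF targets, changed by less than 2-fold. None of 20 was called by edgeR or DESeq2. In edgeR 5 had an unadjusted p under 0.05 (3 higher and 2 lower), against 17.4% of all genes. At any fold 2 passed, both higher, against 3.11% of all genes that rose. Pfkp, the platelet form of phosphofructokinase, was at 305, 335 and 369 CPM in WT-RA and 601, 763 and 593 CPM in WT-O2, a log2 fold change of 0.95 ± 0.14 (SE, adjusted p = 0.00481). Pfkfb3, which makes the activator of phosphofructokinase, was at 20.8, 20.2 and 16.4 CPM in WT-RA and 32.4, 33.1 and 26.3 CPM in WT-O2 (0.68 ± 0.11 SE, adjusted p = 0.0126). Slc2a1, the glucose transporter GLUT1, had overlapping groups, 245, 209 and 248 CPM in WT-RA and 251, 256 and 245 CPM in WT-O2 (0.10 ± 0.09 SE, adjusted p = 0.643).

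Among the 15 members of the VEGF and angiopoietin system, 4 were called higher and 6 passed at any fold in the same direction. Over all genes these shares were 1.77% and 3.11%. Ligands led. Pgf, placental growth factor, was at 1.52, 1.52 and 2.27 CPM in WT-RA and 7.43, 7.95 and 7.05 CPM in WT-O2 (2.08 ± 0.36 SE, adjusted p = 0.0142). Angpt2, the angiopoietin that destabilizes vessels, was at 5.6, 4.19 and 4.5 CPM in WT-RA and 17.5, 23.1 and 13.1 CPM in WT-O2 (1.91 ± 0.30 SE, adjusted p = 0.00779). Both groups were apart in each gene, and the Angpt2 call was lost without the lens-bearing WT-RA pair (adjusted p = 0.109). The other ligands did not pass: Vegfb had a log2 fold change of -0.37, adjusted p = 0.184, Vegfc -0.28, adjusted p = 0.704, Vegfd -0.61, adjusted p = 0.553 and Angpt1, the stabilizing angiopoietin, 0.31, adjusted p = 0.781. Of the receptors, Tie1 was called, at 6.16, 5.72 and 6.34 CPM in WT-RA and 14.1, 12.5 and 11.6 CPM in WT-O2 (1.07 ± 0.15 SE, adjusted p = 0.00475), although without WT-O2 1 it fell just short of 2-fold (log2 fold change 0.99). Nrp1, a VEGF co-receptor, rose by 0.95 ± 0.14 (SE, adjusted p = 0.0069) and Kdr, the main VEGF receptor, by 0.52 ± 0.10 (SE, adjusted p = 0.0242), both under 2-fold. Kdr was at 38.2, 34.5 and 35.6 CPM in WT-RA and 49.1, 52.1 and 54.6 CPM in WT-O2, without overlap. Flt1, the decoy receptor, had a log2 fold change of 0.27, adjusted p = 0.408, and Flt4, the receptor of lymphatic vessels, of 0.63, adjusted p = 0.171. None passed among the rest, with 0.27, adjusted p = 0.442 for Nrp2, 0.11, adjusted p = 0.798 for Tek and 0.42, adjusted p = 0.266 for the phosphatase Ptprb.

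All 7 members of the endothelin system were tested and 3 were called higher (1.77% of all genes were). Beside Edn2, its receptor Ednra, a constrictor receptor of mural cells, was at 2.24, 1.64 and 3.68 CPM in WT-RA and 7.08, 6.61 and 8.03 CPM in WT-O2 (1.52 ± 0.27 SE, adjusted p = 0.0166), without overlap. Edn1, endothelin 1, was at 2.12, 2.59 and 2.61 CPM in WT-RA and 4.19, 6.89 and 3.85 CPM in WT-O2 (1.03 ± 0.23 SE, adjusted p = 0.0416) and lost its call without WT-RA 1, the library labelled WT-RA 2 or WT-O2 2 (adjusted p = 0.0439 to 0.151). Ednrb, the second receptor, did not pass (0.81 ± 0.28 SE, adjusted p = 0.159), nor did the converting enzymes Ece1 (0.36, adjusted p = 0.628) and Ece2 (-0.38, adjusted p = 0.288). Edn3 was at 0.6, 0.496 and 2.27 CPM in WT-RA and 0, 0.281 and 0.204 CPM in WT-O2, low in all 6 retinas, with a log2 fold change of -2.74 ± 0.99 (SE, adjusted p = 0.181) that did not pass here but was called lower by DESeq2. Of the 7, 1 was called without WT-RA 1, the library labelled WT-RA 2 or WT-O2 2. There were 2 calls without WT-O2 1 or WT-O2 3, and 4 without WT-RA 3.

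**Figure D4:**
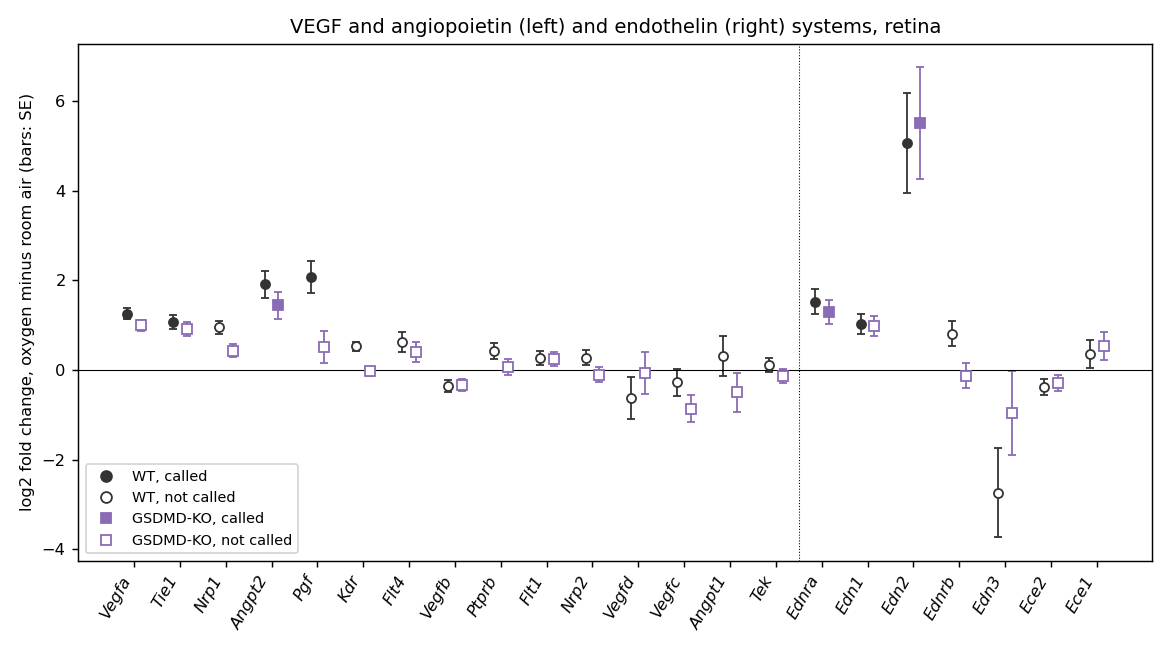
Points give the log2 fold change of oxygen against room air for the 15 members of the VEGF and angiopoietin system and the 7 of the endothelin system, with bars for the standard error, circles for WT and squares for GSDMD-KO retinas, filled where called. Edn2 reaches 5.07 in WT, and the ligands Pgf, Angpt2 and Vegfa lie above most receptors.

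Many genes of sprouting endothelium rose. Of 21 genes of tip cells and neovascular tufts, 14 were called higher (1.77% of all genes were) and none lower. In 20 the groups did not overlap, with higher values in WT-O2 (12.1% of all genes did). The median log2 fold change was 1.5. Mcam, an adhesion molecule of endothelium and pericytes, was at 9.68, 6.14 and 11.4 CPM in WT-RA and 51.6, 52.5 and 36.8 CPM in WT-O2 (2.37 ± 0.23 SE, adjusted p = 0.00104). Lama4, a laminin of endothelial basement membrane, was at 4.4, 2.63 and 4.84 CPM in WT-RA and 17.2, 19.9 and 13.4 CPM in WT-O2 (2.09 ± 0.22 SE, adjusted p = 0.00118). Cd34, a sialomucin of tip cell filopodia, was at 15.7, 11.4 and 17.6 CPM in WT-RA and 53, 41 and 43.9 CPM in WT-O2 (1.63 ± 0.17 SE, adjusted p = 0.00118). In these 3 genes the lowest WT-O2 value was more than 2 times the highest WT-RA value. Cxcr4, the chemokine receptor of tip cells, rose by 2.22 ± 0.36 (SE, adjusted p = 0.00913), the Notch ligand Dll4 by 1.5 ± 0.30 (SE, adjusted p = 0.027) and Aplnr, the apelin receptor, by 1.54 ± 0.34 (SE, adjusted p = 0.039). The call was lost for Dll4 without WT-RA 1 (adjusted p = 0.111) and for Aplnr without WT-RA 1, the library labelled WT-RA 2 or WT-O2 1 (adjusted p = 0.00426 to 0.149). Cxcl12, the ligand of Cxcr4, did not pass (-0.18, adjusted p = 0.749). The number called was 9 without WT-RA 1, 10 without the library labelled WT-RA 2, 16 without WT-RA 3 and 11 to 14 without a WT-O2 library.

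Many general endothelial genes rose and 2 fell. Of 23, 13 were called higher and 2 lower (1.77% and 0.266% of all genes were), with a median of 1.15. Ecscr, an endothelial surface protein, was at 3.52, 1.79 and 3.9 CPM in WT-RA and 27, 19.7 and 18.7 CPM in WT-O2 (2.83 ± 0.27 SE, adjusted p = 0.00104). Cdh5, VE-cadherin, was at 6.56, 5.26 and 9.59 CPM in WT-RA and 21.4, 22.7 and 17.3 CPM in WT-O2 (1.52 ± 0.19 SE, adjusted p = 0.00294). Pecam1, an endothelial junction molecule, was at 11.4, 9.22 and 12.5 CPM in WT-RA and 27.7, 27.2 and 23.2 CPM in WT-O2 (1.24 ± 0.15 SE, adjusted p = 0.00184). The transcription factors Sox18 (1.49 ± 0.21 SE, adjusted p = 0.00423) and Erg (1.06 ± 0.16 SE, adjusted p = 0.00609) and the TGF-β co-receptor Eng (1.40 ± 0.20 SE, adjusted p = 0.00504) were called as well, Erg falling short of 2-fold without WT-RA 1 or WT-O2 1 (log2 fold change 0.96 at the lowest). The falling pair belong to mature vessels. Ly6c1, a surface antigen of capillary endothelium, was at 87.3, 68 and 55.8 CPM in WT-RA and 21.5, 13.8 and 36.7 CPM in WT-O2 (-1.55 ± 0.29 SE, adjusted p = 0.0196). Slco1a4, an organic anion transporter of the blood-brain and blood-retina barriers, was at 15.4, 13.8 and 15.2 CPM in WT-RA and 8.89, 4.55 and 5.96 CPM in WT-O2 (-1.20 ± 0.30 SE, adjusted p = 0.0599). Every WT-O2 value lay below every WT-RA value in both genes. The Ly6c1 call was kept with each single WT library left out, and that of Slco1a4 was lost without WT-RA 1, the library labelled WT-RA 2, WT-O2 2 or WT-O2 3 (adjusted p = 0.0541 to 0.202). Between 9 and 13 endothelial genes were called higher with 1 WT library left out, and 5 without all 3 lens-bearing room air retinas, where Eng (adjusted p = 0.108) and Sox18 (0.103) were among the lost.

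The list of Norrin signaling and the blood-retina barrier showed no call by edgeR or DESeq2 among 15 genes. In edgeR 3 had an unadjusted p under 0.05, all higher, against 17.4% of all genes in either direction. At any fold 2 passed as higher, against 3.11% of all genes. These were Cldn5, the tight junction claudin, at 0.85 ± 0.16 (SE, adjusted p = 0.0207) and Cav1, caveolin 1, at 0.73 ± 0.11 (SE, adjusted p = 0.006). Plvap, the diaphragm protein of leaky vessels, was at 7.92, 7.59 and 7.02 CPM in WT-RA and 9.85, 11.6 and 11.2 CPM in WT-O2 (0.53 ± 0.19 SE, adjusted p = 0.17), and Mfsd2a, the lipid transporter that limits transcytosis, had a log2 fold change of -0.43, adjusted p = 0.554. The ligand Ndp (0.14, adjusted p = 0.666) and its receptor Fzd4 (0.17, adjusted p = 0.629) did not pass.

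Some mural cell genes rose. Of 18, 5 were called higher and 10 passed at any fold (1.77% and 3.11% of all genes were higher). None passed as lower, and the median was 0.88. Ndufa4l2, a mitochondrial protein of pericytes that HIF induces, was at 16.9, 15.5 and 48.9 CPM in WT-RA and 279, 231 and 324 CPM in WT-O2 (3.36 ± 0.47 SE, adjusted p = 0.00651). WT-RA 3 had a higher level than the other room air retinas but lay far under the oxygen group. Rgs5, a pericyte regulator of G protein signaling, was at 60.2, 50.6 and 67.1 CPM in WT-RA and 193, 167 and 146 CPM in WT-O2 (1.51 ± 0.18 SE, adjusted p = 0.00197). Myl9, a myosin light chain of smooth muscle, was at 17.3, 12.2 and 16.2 CPM in WT-RA and 52.8, 44.1 and 32.7 CPM in WT-O2 (1.5 ± 0.25 SE, adjusted p = 0.0104). Pdgfrb, the receptor that recruits pericytes, was at 7.8, 8.69 and 7.92 CPM in WT-RA and 12.7, 14.8 and 9.77 CPM in WT-O2, a rise under 2-fold (0.61 ± 0.16 SE, adjusted p = 0.0682), while its ligand Pdgfb, of the tip cell list, was called (1.20 ± 0.21 SE, adjusted p = 0.015). Without the 2 lens-bearing WT-RA libraries 3 mural cell genes were called, and Myl9 (adjusted p = 0.111) was not among them.

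Some genes of reactive glia rose. Of 24 genes of Mueller gliosis and reactive glia, 11 were called higher (1.77% of all genes were) and none lower by edgeR. In 1 member the log2 fold change was negative (-3.34, unadjusted edgeR p under 0.05), with values that overlapped between groups. DESeq2 called 16 higher and 1 lower. The median was 1.64. Fgf2, a growth factor made by stressed photoreceptors and Mueller glia, was at 5.24, 7.01 and 11.8 CPM in WT-RA and 33.2, 49.7 and 46.8 CPM in WT-O2 (2.43 ± 0.32 SE, adjusted p = 0.00321). Nes, nestin, was at 2.4, 2.55 and 3.17 CPM in WT-RA and 10.9, 16.3 and 9.84 CPM in WT-O2 (2.19 ± 0.25 SE, adjusted p = 0.00172). Jak3, a cytokine receptor kinase, was at 1.72, 1.79 and 2.36 CPM in WT-RA and 7.43, 8.33 and 5.85 CPM in WT-O2 (1.88 ± 0.25 SE, adjusted p = 0.00321). None of these overlapped between groups, and their calls held with each WT library left out. Cebpd, an acute-phase transcription factor, rose by 2.23 ± 0.34 (SE, adjusted p = 0.00753) and Timp1, a metalloproteinase inhibitor, by 2.74 ± 0.46 (SE, adjusted p = 0.012). Gfap, the intermediate filament whose rise marks gliosis, was at 12.2, 6.52 and 28.9 CPM in WT-RA and 82, 116 and 103 CPM in WT-O2 (2.66 ± 0.52 SE, adjusted p = 0.0318), without overlap, and its call was lost without WT-RA 1 or WT-O2 2 (adjusted p = 0.00658 to 0.126). Stat3, the factor downstream of gp130 cytokines, was at 39, 38.4 and 43.5 CPM in WT-RA and 68.9, 137 and 71.6 CPM in WT-O2 (1.20 ± 0.24 SE, adjusted p = 0.028), with WT-O2 2 far above the other oxygen retinas. The Stat3 call was lost without WT-RA 1, the library labelled WT-RA 2 or WT-O2 2 (adjusted p = 0.0293 to 0.114, log2 fold change 0.80 to 1.37). The list count was 7 without WT-RA 1, the library labelled WT-RA 2 or WT-O2 2 and 16 without WT-RA 3.

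Genes of resting Mueller glia did not follow. None of 18 was called by edgeR or DESeq2, 9 had an unadjusted p under 0.05, 2 rose and 5 fell at any fold (3.11% and 2.05% of all genes did), and the median was -0.25. Those that fell included Kcnj10, a potassium channel (-0.74 ± 0.15 SE, adjusted p = 0.0334), Glul, glutamine synthetase (-0.60 ± 0.14 SE, adjusted p = 0.0464), and Dkk3 (-0.43 ± 0.10 SE, adjusted p = 0.0396). Those that rose were Sox9, a glial transcription factor (0.81 ± 0.21 SE, adjusted p = 0.0733), and the tetraspanin Cd9 (0.68 ± 0.15 SE, adjusted p = 0.0427). Rlbp1, the retinaldehyde-binding protein, was at 565, 439 and 382 CPM in WT-RA and 318, 281 and 287 CPM in WT-O2 (-0.65 ± 0.18 SE, adjusted p = 0.0956), without overlap.

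Some microglia and macrophage genes rose. Of 26 tested, 7 were called higher (1.77% of all genes were) and none lower, with a median of 1.02. Fcrls, a receptor of resident microglia, was at 2, 0.762 and 2.66 CPM in WT-RA and 5.7, 6.83 and 9.33 CPM in WT-O2 (2.01 ± 0.44 SE, adjusted p = 0.0373). Cd68, a lysosomal protein of phagocytes, was at 5.88, 8.12 and 8.27 CPM in WT-RA and 13.2, 14.9 and 19 CPM in WT-O2 (1.08 ± 0.24 SE, adjusted p = 0.0428). Other resident markers did not pass: P2ry12 was at 9.52, 2.67 and 5.82 CPM in WT-RA and 5.73, 3.52 and 8.17 CPM in WT-O2 (-0.05, adjusted p = 0.974) and Tmem119 at 2.28, 0.991 and 1.11 CPM in WT-RA and 1.23, 0.842 and 3.27 CPM in WT-O2 (0.28, adjusted p = 0.831), and both overlapped between groups. Aif1, the marker IBA1, was at 1.6, 0.343 and 1.63 CPM in WT-RA and 2.89, 3.46 and 5.31 CPM in WT-O2 (1.71 ± 0.56 SE, adjusted p = 0.146), apart in its values but not past the threshold. The complement list shared the C1q genes and had 6 of 20 called higher (1.77% of all genes were), none lower. C1qb was at 14.9, 7.59 and 16 CPM in WT-RA and 31.2, 28.3 and 43.5 CPM in WT-O2 (1.42 ± 0.26 SE, adjusted p = 0.0196) and kept its call with each single WT library left out. C3ar1, the C3a receptor, rose by 1.78 ± 0.46 (SE, adjusted p = 0.0679) and Serping1, the C1 inhibitor, by 1.39 ± 0.38 (SE, adjusted p = 0.0882), and both calls were lost without any WT library but WT-RA 3 (adjusted p = 0.0578 to 0.215 and 0.0396 to 0.263). These counts rested on single libraries: without the library labelled WT-RA 2 there were 2 microglial and 1 complement calls, and without WT-O2 3, which had the highest level of C1qb, 1 and 1. They were 4 and 3 without WT-RA 1, 5 and 3 without WT-O2 2 and 10 and 7 without WT-RA 3, and without both lens-bearing libraries 3 and 2. The call of Cd68 was lost without WT-RA 1, the library labelled WT-RA 2, WT-O2 2 or WT-O2 3 (adjusted p = 0.0595 to 0.161) and that of Fcrls without WT-RA 1 or WT-O2 3 (0.0302 to 0.122).

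Cytokine genes gave few calls. Of 21 chemokine, cytokine and receptor genes tested, 3 were called higher (1.77% of all genes were). Ccl2, the monocyte attractant, was at 0.2, 0.61 and 0.428 CPM in WT-RA and 2, 4.9 and 2.28 CPM in WT-O2 (2.88 ± 0.81 SE, adjusted p = 0.0914). Tgfb1 was at 4.72, 4.57 and 8.57 CPM in WT-RA and 13.4, 12 and 12.2 CPM in WT-O2 (1.07 ± 0.23 SE, adjusted p = 0.0374). The TNF receptor Tnfrsf1b was at 1, 0.496 and 1.71 CPM in WT-RA and 2.39, 3.87 and 3.17 CPM in WT-O2 (1.55 ± 0.43 SE, adjusted p = 0.0894). The Ccl2 call was lost with any library left out (adjusted p = 0.148 to 0.307). That of Tnfrsf1b was lost without any but WT-RA 3 (0.038 to 0.264) and that of Tgfb1 without WT-RA 1, the library labelled WT-RA 2, WT-O2 1 or WT-O2 2 (0.00426 to 0.137). No member was called without WT-RA 1, the library labelled WT-RA 2, WT-O2 1 or WT-O2 2, 2 were without WT-O2 3 and 5 without WT-RA 3. Il1b, Il6 and Tnf were too low to be tested. Interferon-stimulated genes had 4 of 25 called higher (1.77% of all genes were) and none lower, with a median of 0.66. Ifitm3, a membrane antiviral protein also found in endothelium, was at 18.7, 10.6 and 29.8 CPM in WT-RA and 63.6, 50.9 and 64.5 CPM in WT-O2 (1.60 ± 0.30 SE, adjusted p = 0.0214). Irf7, an interferon regulatory factor, was at 9.84, 6.59 and 13.8 CPM in WT-RA and 26.6, 34 and 22.5 CPM in WT-O2 (1.46 ± 0.29 SE, adjusted p = 0.0254, lost without WT-RA 1 at an adjusted p of 0.101). Both were apart between groups. The list had 2 calls without the library labelled WT-RA 2, without WT-O2 1 or without both lens-bearing libraries.

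Genes of NF-κB feedback and death receptors had 4 of 20 called higher (1.77% of all genes were) and none lower. Birc3, an inhibitor of apoptosis protein of the TNF receptor complex, was at 0.84, 0.801 and 0.942 CPM in WT-RA and 3.31, 3.46 and 1.87 CPM in WT-O2 (1.74 ± 0.30 SE, adjusted p = 0.0144), and its lowest WT-O2 value was about 2 times the highest WT-RA value. Casp8, the initiator caspase of death receptors, was at 0.76, 0.953 and 1.16 CPM in WT-RA and 2.19, 3.34 and 2.72 CPM in WT-O2 (1.52 ± 0.27 SE, adjusted p = 0.0153). Both kept their calls with each single WT library left out. That of Birc3 was lost without the lens-bearing WT-RA pair, with a log2 fold change of 1.79. With the presence of Y-linked counts as a covariate the Casp8 call was lost (edgeR adjusted p = 0.1003). Nfkb2, the p100 subunit, rose by 1.11 ± 0.25 (SE, adjusted p = 0.0392), a call lost without WT-RA 1 or WT-O2 2 (adjusted p = 0.0428 to 0.157). The list had 2 calls without WT-RA 1. None of the 12 pyroptosis and inflammasome genes tested, of 17 listed, passed in edgeR. An unadjusted edgeR p under 0.05 was reached by 4, all higher, against 17.4% of all genes in either direction. DESeq2 called 1, Pycard (adjusted p = 0.0822). Gsdmd, the pore-forming executor of pyroptosis, was at 2.4 ± 1.85 CPM (SD, n = 3) in WT-RA and 4.15 ± 1.42 CPM (SD, n = 3) in WT-O2, a log2 fold change of 0.79 ± 0.62 (SE, adjusted p = 0.571) with overlapping values. With 1 WT library left out this value ran from 0.29 to 1.41, and without the lens-bearing WT-RA pair it was 0.04. Pycard, the inflammasome adaptor, had a log2 fold change of 1.43 ± 0.48 (SE, adjusted p = 0.153), and it was called without WT-RA 3 (1.95, adjusted p = 0.0709) and without the lens-bearing pair (2.83, adjusted p = 0.0589). The log2 fold change of Casp1 was 1.47 ± 0.78 (SE, adjusted p = 0.363) and that of the membrane rupture protein Ninj1 0.49 ± 0.19 (SE, adjusted p = 0.207). Nlrc3, an inhibitory NLR protein, was at 1.52, 2.59 and 1.88 CPM in WT-RA and 3.23, 3.65 and 2.52 CPM in WT-O2 (0.65 ± 0.25 SE, adjusted p = 0.203), also not past the threshold. Of 23 apoptosis and p53 target genes, 1 was called higher (1.77% of all genes were), Cdkn1a, the p21 cell cycle inhibitor. Its change was 1.12 ± 0.25 (SE, adjusted p = 0.0397), a call lost without WT-RA 1, the library labelled WT-RA 2 or WT-O2 2 (adjusted p = 0.0597 to 0.143). That list had no call without the library labelled WT-RA 2 or WT-O2 2 and 2 calls without WT-O2 1.

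Some mitotic genes rose, from low levels. Of 27, 7 were called higher (1.77% of all genes were) and none lower. A positive log2 fold change was seen in 26, and the median was 1.04. Ube2c, a ubiquitin-conjugating enzyme of the anaphase-promoting complex, was at 2.4, 2.52 and 2.7 CPM in WT-RA and 7.58, 6.7 and 8.58 CPM in WT-O2 (1.58 ± 0.21 SE, adjusted p = 0.00321) and kept its call with each single WT library left out. Birc5, survivin of the chromosomal passenger complex, was at 1.08, 0.801 and 1.54 CPM in WT-RA and 4.16, 2.49 and 5.48 CPM in WT-O2 (1.82 ± 0.41 SE, adjusted p = 0.0416) and lost its call without WT-RA 1, the library labelled WT-RA 2, WT-O2 1 or WT-O2 3 (adjusted p = 0.0428 to 0.15). Cdk1, the mitotic kinase, rose by 3.15 ± 0.70 (SE, adjusted p = 0.0405) and lost its call without WT-RA 1, the library labelled WT-RA 2, WT-O2 2 or WT-O2 3 (adjusted p = 0.0135 to 0.154). The count was 2 without WT-RA 1 or WT-O2 3, 3 without the library labelled WT-RA 2, 4 without WT-O2 1 or WT-O2 2 and 8 without WT-RA 3.

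Extracellular matrix genes had 7 of 25 called higher (1.77% of all genes were) and none lower, with a median of 0.72. Fn1, fibronectin, was at 28.2, 33.2 and 39.4 CPM in WT-RA and 91.5, 133 and 88.9 CPM in WT-O2 (1.63 ± 0.22 SE, adjusted p = 0.00384). Serpinh1, the collagen chaperone HSP47, was at 20.1, 17.2 and 31.1 CPM in WT-RA and 67.6, 68.5 and 64.1 CPM in WT-O2 (1.55 ± 0.21 SE, adjusted p = 0.00321). Loxl2, a collagen crosslinker of vascular basement membrane, was at 6.68, 6.48 and 7.84 CPM in WT-RA and 22.2, 30.03 and 18.4 CPM in WT-O2 (1.75 ± 0.20 SE, adjusted p = 0.00184). All 3 were more than 2 times as high in the lowest WT-O2 as in the highest WT-RA retina and kept their calls with each single WT library left out. Without WT-RA 3, 13 of the 25 were called.

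The photoreceptor lists had medians of -0.05 (rods) and -0.09 (cones). Of 24 rod genes 1 was called lower (0.266% of all genes were), Guca1a, a guanylate cyclase activator that is also in the cone list. It was at 564, 487 and 344 CPM in WT-RA and 242, 208 and 242 CPM in WT-O2 (-1.01 ± 0.17 SE, adjusted p = 0.0108), and lost its 2-fold call without WT-RA 1, the library labelled WT-RA 2 or WT-O2 2 (log2 fold change -1.19 to -0.85). A second row of the table holds identical Guca1a values, so its counts may be shared with a copy. Rod transducin, Gnat1, had a log2 fold change of -0.25, adjusted p = 0.255 and arrestin, Sag, of -0.36, adjusted p = 0.164. Of 16 cone genes, 3 fell and 1 rose at any fold (2.05% and 3.11% of all genes did). At an unadjusted edgeR p under 0.05, 4 cone genes were lower and 2 higher, against 17.4% of all genes in either direction. In the cone list Arr3, cone arrestin, fell by 0.55 ± 0.15 (SE, adjusted p = 0.0835). Gnb3, the cone transducin β subunit, rose by 0.49 ± 0.12 (SE, adjusted p = 0.0577).

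Inner retinal lists held no call by edgeR or DESeq2, but members fell at any fold. These were 5 of 20 bipolar cell genes, 6 of 22 amacrine and horizontal cell genes, 4 of 21 ganglion cell genes and 6 of 27 synaptic genes, and none of these list members rose, against 2.05% of all genes that fell. Members with an unadjusted p under 0.05 numbered 9, 9, 9 and 13, all lower, against 17.4% of all genes in either direction. The medians were -0.22, -0.35, -0.30 and -0.33. Grik1, a kainate receptor of OFF bipolar cells, was at 76.4, 73 and 69.1 CPM in WT-RA and 51.7, 48.9 and 43.1 CPM in WT-O2 (-0.61 ± 0.10 SE, adjusted p = 0.0107). Calb1, a calcium buffer of horizontal and amacrine cells, was at 113, 82.4 and 76.2 CPM in WT-RA and 55.6, 43.2 and 50.3 CPM in WT-O2 (-0.86 ± 0.18 SE, adjusted p = 0.0358). Vip, an amacrine neuropeptide, was at 18, 14.6 and 12.5 CPM in WT-RA and 9.16, 8.17 and 8.82 CPM in WT-O2 (-0.79 ± 0.14 SE, adjusted p = 0.0155). The groups did not overlap in these genes. Among ganglion cell genes Nefh, a neurofilament, was at 89.2, 72.8 and 68.4 CPM in WT-RA and 53.9, 52.5 and 52.1 CPM in WT-O2 (-0.54 ± 0.11 SE, adjusted p = 0.0273). Chrna6, a nicotinic receptor subunit, was at 83.5, 61.1 and 57.3 CPM in WT-RA and 46.2, 36.9 and 43.3 CPM in WT-O2 (-0.68 ± 0.15 SE, adjusted p = 0.0361). Of the GABA receptor subunits, Gabrr2 fell by 0.52 ± 0.09 (SE, adjusted p = 0.0132). Without both lens-bearing WT-RA libraries 3 amacrine and horizontal cell genes were called lower. Outside the lists Cck, an amacrine neuropeptide named after its values were seen, was at 72, 44.1 and 38.4 CPM in WT-RA and 22.2, 19.6 and 13.2 CPM in WT-O2 and was called lower (-1.49 ± 0.26 SE, adjusted p = 0.0143).

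Stress and housekeeping lists held few calls. Of 18 genes of the unfolded protein and integrated stress response, 1 was called higher (1.77% of all genes were), Atf3, a stress-induced transcription factor. It was at 3.32, 3.96 and 2.66 CPM in WT-RA and 9, 13.6 and 7.45 CPM in WT-O2 (1.59 ± 0.24 SE, adjusted p = 0.0069). Herpud1, an ER stress protein, fell under 2-fold (-0.52 ± 0.11 SE, adjusted p = 0.0305). None of 21 NRF2 and antioxidant genes, 17 clock genes or 19 visual cycle genes was called by edgeR or DESeq2, 7, 6 and 4 had an unadjusted p under 0.05 (17.4% of all genes did), and at any fold 2, 1 and 1 passed (5.16% of all genes did). Nfe2l2 itself rose by 0.44 ± 0.11 (SE, adjusted p = 0.0679) and Prdx6, a peroxiredoxin, fell by 0.51 ± 0.14 (SE, adjusted p = 0.091). Bhlhe40, a clock repressor and HIF target, rose by 0.45 ± 0.11 (SE, adjusted p = 0.0584) and Rlbp1 fell as above. The medians were -0.06, -0.16 and -0.23.

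Lists of other tissues gave no call by edgeR. Of the 16 pigment epithelium and melanocyte genes, 2 had an unadjusted p under 0.05, both lower, and DESeq2 called 1. For iris, ciliary and corneal epithelium (14 tested), skeletal muscle (12), erythroid blood (8) and platelets and leukocytes (11), DESeq2 called none, and 0, 1, 2 and 3 had an unadjusted p under 0.05. The summed level of the erythroid genes was 1127, 910.1 and 752 CPM in WT-RA and 1034, 1599.9 and 1149.8 CPM in WT-O2 (exact two-sided permutation test, p = 0.2). With 3 against 3 retinas the smallest p of this test is 0.1, so it cannot decide whether the levels differed.

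**Figure D5:**
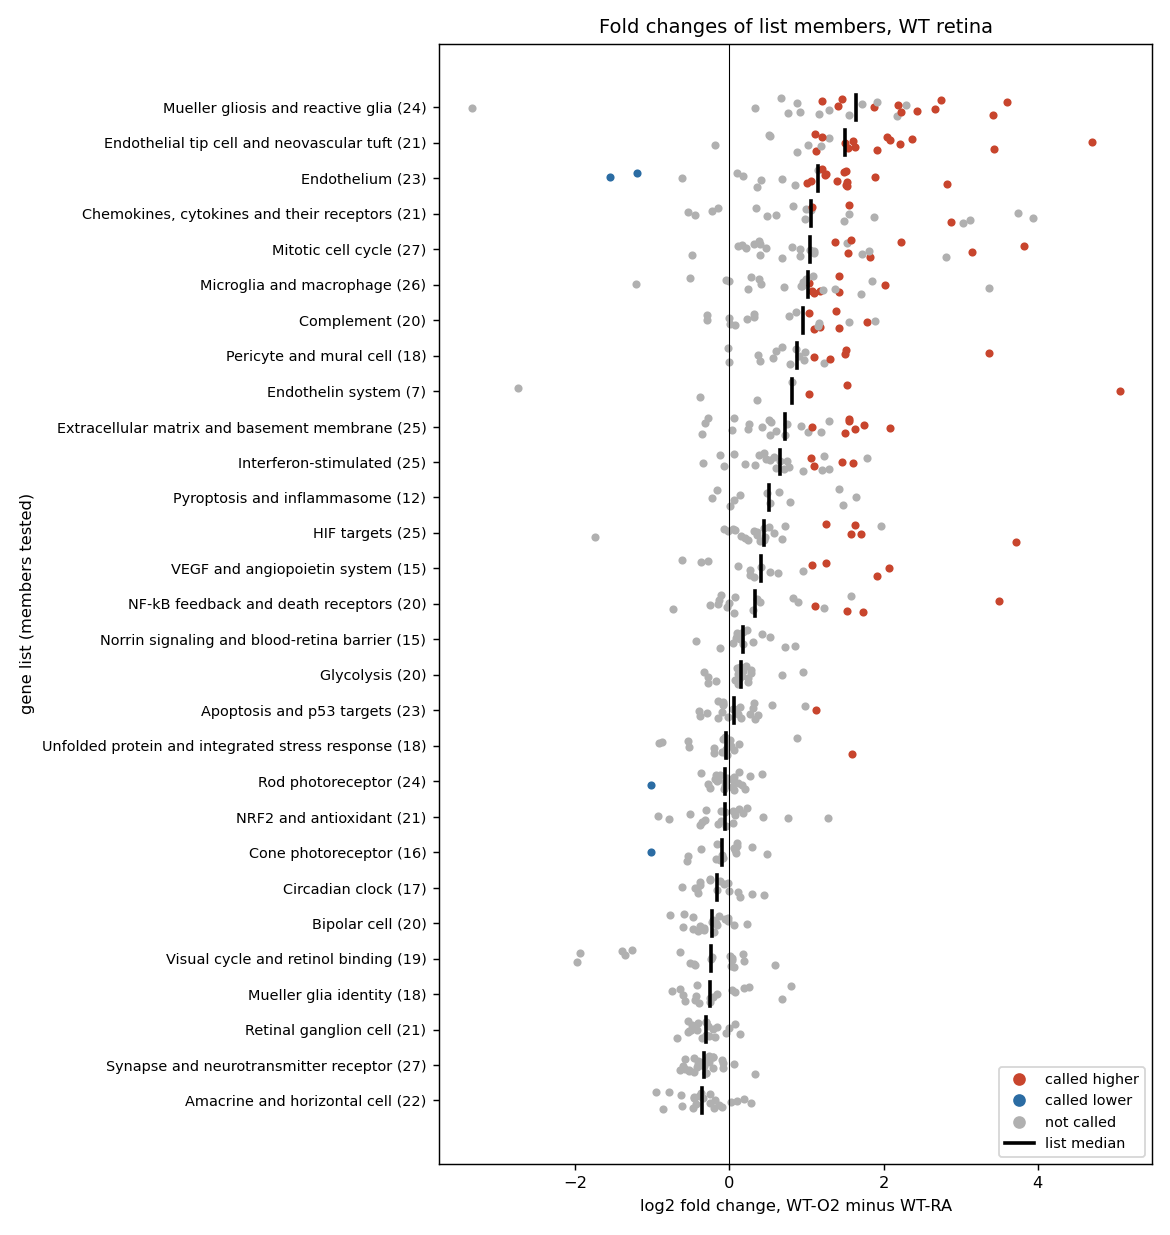
Each point is 1 tested member of a gene list, placed by its log2 fold change of WT-O2 against WT-RA, with called genes in red (higher) or blue (lower), the list median as a black bar and the number of members tested in brackets. Medians are 1.64 for the gliosis, 1.5 for the tip cell and 1.15 for the endothelial list, and -0.35 for the amacrine and horizontal cell list.

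Set beside the GSDMD-KO retinas, which have room air and oxygen controls of their own, 364 of the 391 genes had the same sign there (58.9% of all genes tested did) and 155 were called in the same direction (the knockout comparison called 420 genes). None of the 391 passed a test of the difference between genotypes in edgeR, while 108 had an unadjusted p under 0.05 for it (2035 of all 19173 genes tested did). In DESeq2 32 of the 391 passed, among 542 genes in all. The count thus depended on the test used, and a call in 1 genotype alone is not read as a difference here. The log2 fold change of Edn2 was 5.51 ± 1.24 (SE, adjusted p = 0.0441) in the knockout, that of Adm 3.09 ± 0.25 (SE, adjusted p = 0.000351) and that of Vegfa 1.00 ± 0.13 (SE, adjusted p = 0.00381). For Pgf it was 0.52 ± 0.35 (SE, adjusted p = 0.45), with an edgeR difference from WT of -1.56 (adjusted p = 0.294). For Birc3 it was 0.18 ± 0.29 (SE, adjusted p = 0.784), with a difference of -1.55 (adjusted p = 0.237). For Epo it was 4.16 ± 0.44 (SE, adjusted p = 0.00216), with a difference of 2.58 (adjusted p = 0.194). Epo was at 0.203, 0.437 and 0.119 CPM in KO-RA and 4.72, 5.64 and 3.63 CPM in KO-O2, lower in room air and higher after oxygen than in the WT retinas.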

How the data were processed

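RNA of whole retinas was sequenced, 1 library per mouse. The authors deposited estimated counts per gene, made with kallisto after quality control with FastQC (versions not given in the sources used here) and summed to genes with tximport. The labels give mm10 and the methods GRCm39 for the build. Of the nonzero values, 2.20% lay within 0.01 of a whole number, and 788 rows of the table were identical to another row. Counts were rounded and TMM-scaled, and genes were kept by the default group filter of edgeR, which left 19173 of 36595.

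A quasi-likelihood model with 1 term per group over all 12 retinas was fitted with edgeR 4.0.16 in R 4.3.3, and WT-O2 minus WT-RA was tested with Benjamini-Hochberg adjustment. Calls used an adjusted p below 0.1, an unadjusted p below 0.05 and a 2-fold limit, as in the methods of the study. SEs were taken from the log2 fold change and the F statistic. The script was tested on simulated data. The litter of each mouse is not given, and depth limits genes of a few CPM.

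The genes named are the 12 largest rises and falls among called genes with no overlap, a mean of at least 1 CPM and an established symbol, up to 6 members of smallest p in each list, all members of the VEGF and endothelin systems, and genes the study names. Members and lists were chosen with earlier results of these data known. Alternatives were DESeq2 1.42.0, other filters, scalings, thresholds and covariates, and leaving out libraries. Leaving out all 3 lens-bearing retinas, the sex covariate and counting identical rows once were chosen after seeing the data. A few genes are not reported here.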

Additional observations from a re-analysis of the deposited data

Results flagged for a closer look

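Rbm3, a cold-inducible RNA-binding protein, was the 1 gene whose change with oxygen differed between genotypes at an adjusted p under 0.1 in edgeR. It was at 116, 109 and 113 CPM in WT-RA and 122, 128 and 131 CPM in WT-O2, and at 108, 119.5 and 115 CPM in KO-RA and 261, 248 and 238 CPM in KO-O2. The log2 fold change was 0.18 ± 0.07 (SE, adjusted p = 0.239) in WT and 1.12 ± 0.07 (SE, adjusted p = 0.000121) in the knockout, a difference of 0.948 ± 0.103 (SE, adjusted p = 0.0252). The KO-O2 values stood above those of the other 3 groups, which lay close together.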

How the results depend on the processing

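All called genes that were tested kept their sign in each of 20 other settings. In settings that changed only a threshold the fold changes were the same, so no sign could turn. In the rest a turn was unlikely, as 390 of the 391 had no overlap between groups. The 391 calls (340 higher, 51 lower) became 638 with DESeq2 (144 lower), 707 at a fold of at least 1.5 (516 higher, 191 lower) and 990 with no fold limit (597 higher, 393 lower). At an adjusted p under 0.05, 31 genes were lower, and with sex as a covariate 218 were higher. With 1 WT library left out there were 196 to 504 calls, 172 to 451 higher and 24 to 53 lower. DESeq2 gave a difference between genotypes for 542 genes, against 1 in edgeR. The causes were not tested. Signs turned for 9 named genes, none of them called: with the lens level as covariate for Krt8 (0.52), Lrat (0.63) and Ppp1r15a (0.0053), without the 2 lens-bearing WT-RA libraries for Krt18 (-0.027), Lrat (0.18) and Mlana (0.24), without all 3 lens-bearing retinas for Krt18 (-0.047), Lrat (0.17) and Mlana (0.22), with 1 library left out for Vegfc (-0.498 to 0.042, above 0 without WT-RA 1) and Tek (-0.0099 to 0.24, below 0 without WT-O2 1), and with sex as covariate for Angpt1 (-0.015) and S100a9 (-0.43). No paired analysis was possible because the labels give mouse numbers that no 2 groups share. With 3 retinas a group, a lens-bearing pair in WT-RA and unequal sexes, the part of each in the WT contrast cannot be told apart.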

Other observations

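Outside the lists, and chosen after their values were seen, 4 genes of the AP-1 and small Maf transcription factors, which include immediate-early genes, were called higher. Fosl2 was at 2, 2.71 and 2.66 CPM in WT-RA and 6.46, 8.89 and 5.85 CPM in WT-O2 (1.53 ± 0.27 SE, adjusted p = 0.0153), Junb at 23.4, 17.3 and 18.8 CPM in WT-RA and 45.2, 87.8 and 42.6 CPM in WT-O2 (1.56 ± 0.29 SE, adjusted p = 0.0186), Maff at 1.68, 1.49 and 1.54 CPM in WT-RA and 5.54, 9.45 and 4.15 CPM in WT-O2 (2.02 ± 0.36 SE, adjusted p = 0.0156) and Fosb at 1.68, 1.98 and 2.18 CPM in WT-RA and 3.54, 4.96 and 7.93 CPM in WT-O2 (1.49 ± 0.33 SE, adjusted p = 0.039). The first 3 calls were kept with each single WT library left out, those of Junb (adjusted p = 0.169) and Maff (0.134) were lost without the lens-bearing WT-RA pair, and that of Fosb was lost without WT-RA 1, the library labelled WT-RA 2 or WT-O2 3 (adjusted p = 0.0344 to 0.144). Fos (0.80, adjusted p = 0.181) and Jun (0.37, adjusted p = 0.28) did not pass.

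Also outside the lists, the transcription factor genes Fli1, Elk3 and Meox1 were called higher. Fli1 was at 1.96, 1.37 and 1.8 CPM in WT-RA and 7.35, 6.83 and 5.96 CPM in WT-O2 (1.97 ± 0.20 SE, adjusted p = 0.00118), Elk3 at 4.2, 4.65 and 4.88 CPM in WT-RA and 11.6, 12.2 and 10.2 CPM in WT-O2 (1.31 ± 0.18 SE, adjusted p = 0.00423) and Meox1 at 1.56, 0.953 and 2.7 CPM in WT-RA and 6.96, 6.74 and 5.14 CPM in WT-O2 (1.85 ± 0.35 SE, adjusted p = 0.0199), and these calls were kept with each single WT library left out. H2-Ab1, a class II antigen presentation gene, was at 2.68, 2.17 and 2.44 CPM in WT-RA and 12.2, 10.9 and 14 CPM in WT-O2 (2.35 ± 0.25 SE, adjusted p = 0.00142), while its partner H2-Aa (0.87, adjusted p = 0.655) and the invariant chain Cd74 (1.21, adjusted p = 0.46) did not pass. These genes too were chosen after their values were seen.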
